A study of Mus musculus with 10 samples.

Results

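The alpha-arrestins Txnip, Arrdc4 and Arrdc3 and the glucose-responsive transcription factors Mlxip and Mlxipl were followed in mouse small cell lung cancer cells exposed to stiripentol. These 5 genes were chosen by symbol, from knowledge of the pathway, out of 26335 rows of expression values. Each of them had 1 row, 4 of the 5 were expressed highly enough to be tested, and Mlxipl had 1 read in all 10 libraries together. The cells were mSCLC-2405 cells, a line from a primary lung tumor of a mouse model in which tumor suppressor genes, Rb1 among them, are deleted in the airways by intratracheal Adeno-Cre, so both groups share these deletions and come from 1 line. The control group held 5 libraries and the stiripentol group held 5 libraries from cells kept for 48 h with 250 μM stiripentol, an antiseizure drug, and the treatment record names DMSO as the alternative to the drug. The comparison asks which transcripts differ after prolonged exposure to the drug, and it is reported here for the glucose-sensing genes and the genes that work with them.

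Alpha-arrestins are adaptor proteins that bring Nedd4-family ubiquitin ligases to membrane proteins and so promote their removal from the cell surface. Txnip binds reduced thioredoxin and promotes endocytosis of the glucose transporters Slc2a1 and Slc2a4, so that it acts as a brake on glucose uptake, and Arrdc4 is a close relative that also lowers glucose uptake. Arrdc3 acts as an adaptor for other cargo, among them the integrin subunit Itgb4. Mlxip (MondoA) and Mlxipl (ChREBP) each pair with Mlx and, when hexose phosphates accumulate, bind carbohydrate response elements, which are a pair of E-box-like hexamers set 5 bases apart. Txnip and Arrdc4 are the best known targets of MondoA in many cell types, whereas ChREBP is known mainly from liver, fat and islets. Because glycolytic flux sets the level of hexose phosphates, inhibitors of respiration are known to lower Txnip transcripts in other cells.

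The bases before the annotated starts of Txnip and Arrdc4 are given here because promoters are where these factors are known to act, and because the motif matches of both genes are described next. Both are from RefSeq on GRCm38.p6, run 5′ to 3′ on the strand of the gene, and were matched by symbol. That of Txnip covers chr3:96557707-96557956 on the forward strand, with the hexamers of the spaced pair in capitals. That of Arrdc4 covers chr7:68749239-68749488 on the reverse strand, with its palindromic E-box in capitals.
Txnip: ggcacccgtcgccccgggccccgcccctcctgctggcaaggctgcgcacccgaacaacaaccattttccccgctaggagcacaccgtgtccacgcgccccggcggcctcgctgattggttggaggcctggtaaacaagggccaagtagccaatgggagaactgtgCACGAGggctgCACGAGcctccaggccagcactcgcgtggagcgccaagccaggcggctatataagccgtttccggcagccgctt
Arrdc4: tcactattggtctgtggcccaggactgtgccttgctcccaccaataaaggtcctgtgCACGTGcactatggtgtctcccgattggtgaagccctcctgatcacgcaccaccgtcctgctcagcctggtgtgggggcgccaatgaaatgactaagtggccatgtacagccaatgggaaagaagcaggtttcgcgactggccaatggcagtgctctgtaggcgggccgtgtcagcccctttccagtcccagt

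The pair in Txnip, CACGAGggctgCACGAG, lay 85 to 69 bases before the start, at chr3:96557872-96557888. The motif searched for, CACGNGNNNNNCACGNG on either strand, has the spacing of a carbohydrate response element. It was found in 16 of 32851 promoter windows of 300 bases (250 before the start and 50 after it), or 0.049%, and Txnip was the only one of the 5 genes with a match. The single hexamer CACGAG, which the pair in Txnip contains, was present in 6.47% of the windows, the E-box CACGTG in 7.15% and the CCAAT box in 37.4%. Arrdc4 held 1 CACGTG, 193 bases before its start, and 6 CCAAT boxes. Txnip held 2 CCAAT boxes, the nearer 102 bases before the start. Of the 2 windows of Mlxipl, 1 held the single hexamer, the E-box and a CCAAT box, whereas the only matches in the windows of Arrdc3 and Mlxip were CCAAT boxes. These are matches of letters, and binding was not measured.

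**Figure D1:**
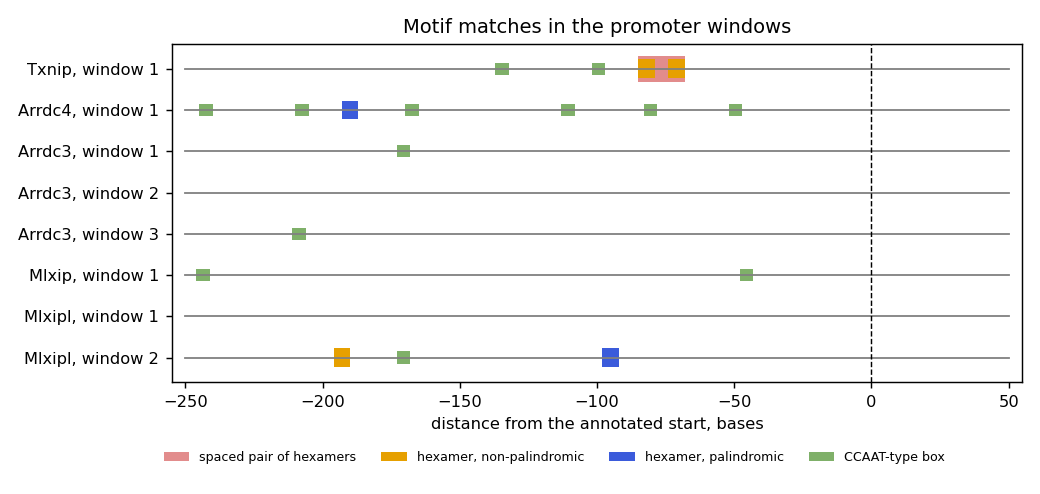
Positions of motif matches in the RefSeq promoter windows of the 5 genes, with the distance from the annotated start in bases on the horizontal axis and 1 line for each window. The spaced pair appears in the Txnip window only, 85 to 69 bases before the start, and the 6 CCAAT boxes of Arrdc4 lie over the whole stretch before its start.

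In GENCODE M21 on GRCm38, Txnip lies at chr3:96557957-96561883, on the forward strand. Arrdc4 lies at chr7:68736995-68749241 on the reverse strand, Arrdc3 at chr13:80883384-80896042, Mlxip at chr5:123394798-123457932 and Mlxipl at chr5:135089890-135138382, the last 3 on the forward strand. Txnip lies wholly within Gm15441, an antisense transcript on the other strand. Whether reads were counted by strand is not given in the sources used here, so reads of the pair cannot be told apart with certainty. Gm15441 had 256 reads in all libraries together against 56529 for Txnip.

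The libraries held 22375625 to 65299372 reads in the control group and 55015760 to 60670901 in the stiripentol group. Values are log2 CPM as deposited, CPM being reads scaled to the same total in each library, and a difference between groups is a difference on that scale. Within each group the libraries fell into 2 sets, controls 1, 2 and 3 against controls 4 and 5, and stiripentol 3, 4 and 5 against stiripentol 1 and 2. Correlations over the 12306 genes tested were 0.983 to 0.997 within the sets of the control group but 0.920 to 0.939 between them, and 0.995 to 0.998 and 0.923 to 0.938 in the stiripentol group. The labels do not name these sets, which were found from the expression values, and controls 1, 2 and 3 also share a lowest value of -4.82 where the other 7 libraries share -4.74, so their scaling was separate. Small cell markers were sparse, with 11 reads of Dll3, 30 of Insm1 and 110 of Syp in all libraries together, while Ncam1 had 69171. Of the epithelial markers, the keratins Krt8 and Krt18 were abundant, with 563707 and 631555 reads, whereas Cdh1 had 295 and Epcam 1, so the small cell identity rests here on the label. Summed over each marker list, neuroendocrine levels were 93.5 to 120 CPM in control and 127 to 157 CPM in stiripentol libraries, epithelial levels 2278 to 2598 CPM and 1544 to 2145 CPM, and fibroblast levels 317 to 511 CPM and 106 to 129 CPM, and leukocyte markers, nearly all Cd68 with 7 reads of Ptprc, were 4.13 to 17.9 CPM and 55.1 to 103 CPM. Tuft cell markers summed to 198 to 244 CPM and 121 to 125 CPM, but moved in both directions, as Dclk1, most of the sum, changed by -1.45 (limma, adjusted p = 0.000115) and Avil by 5.01 (limma, adjusted p = 0.000327). Pou2f3 and Trpm5 were below the filter. Their means were 0.99 and -1.98 log2 CPM in control and -2.53 and -3.63 in stiripentol libraries, so Avil alone of this list was higher. Of the 5 fibroblast markers, Col1a2, Col3a1 and Pdgfra were called lower over all libraries, where 14.1% of all genes were. Col1a1 and Dcn did not pass (limma, adjusted p = 0.529 and 0.557). From controls 4 and 5 to stiripentol 1 and 2, Dcn rose by 1.76 (limma, adjusted p = 1.02e-05) while Col1a1 changed by -2.63. The fibroblast sum therefore does not describe every marker of its list. Endothelial markers summed to at most 1.07 CPM in any library. Rb1 had 5479 reads in all libraries together, and whole-gene values do not show whether these came from the deleted exons. The part of these marker differences in the results was not tested, and in bulk RNA fewer cells of a type and less RNA per cell cannot be told apart.

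Over all 10 libraries no change of the tested genes with stiripentol passed the test. By limma with Benjamini-Hochberg adjustment, 0 of 4 passed an adjusted p of 0.05, where 27.7% of all 12306 genes did (14.1% lower and 13.6% higher), and 0 of 4 had an unadjusted p under 0.05. Txnip and Arrdc3 nevertheless varied widely. Txnip varied in the control group and Arrdc3 in the stiripentol group, each along the line between the library sets.

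**Figure D2:**
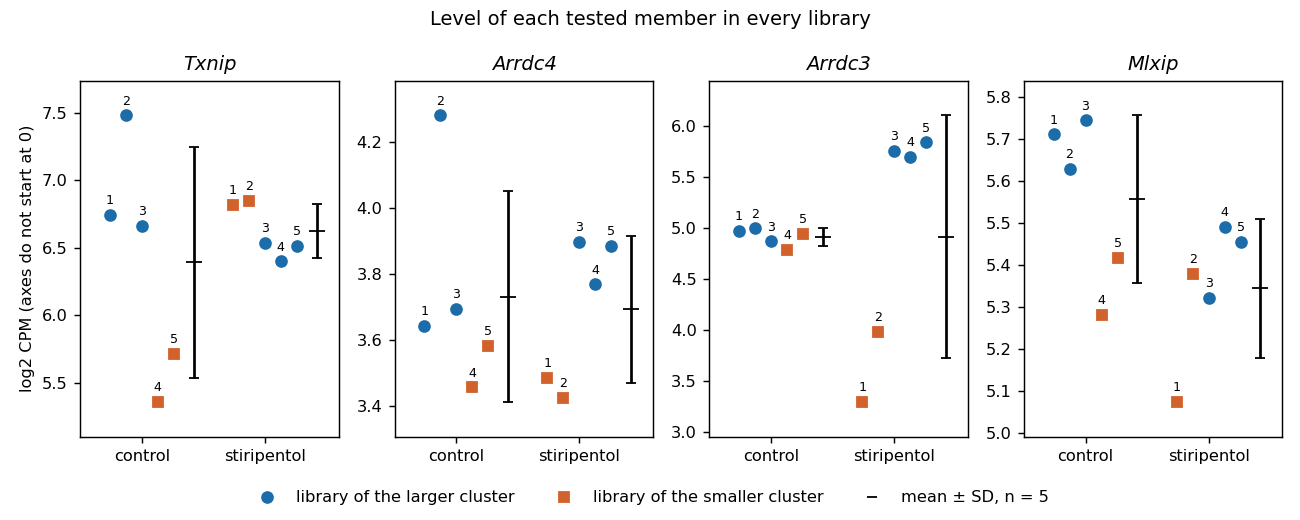
Log2 CPM of Txnip, Arrdc4, Arrdc3 and Mlxip in each control and stiripentol library, numbered by replicate, with the mean and SD of 5 beside the points and circles and squares for the larger and smaller library set of each group. Controls 4 and 5 lie below every other library for Txnip, and stiripentol 1 and 2 lie below every other library for Arrdc3.

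Txnip, the thioredoxin-binding brake on glucose uptake, stood at 6.75, 7.48, 6.66, 5.36 and 5.71 log2 CPM in controls 1 to 5. In stiripentol libraries 1 to 5 it stood at 6.82, 6.85, 6.53, 6.40 and 6.51. The groups overlapped, since the stiripentol values all lay between the low pair of controls, 4 and 5, and control 2. In CPM the controls ran from 41.0 to 179, whereas the stiripentol libraries ran from 84.4 to 115. The mean was 6.39 ± 0.85 in control and 6.62 ± 0.20 in stiripentol libraries (SD, n = 5 each). The change of 0.23 had a standard error of 0.346 and a 95% interval of -0.53 to 0.99 (limma, adjusted p = 0.633).

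Txnip therefore had no single direction, and on the deposited scale its sign went with the controls used. Against controls 4 and 5, Txnip was higher in every stiripentol library. The rise was 1.30 ± 0.129 (SE) in stiripentol 1 and 2, or 2.46-fold (limma, adjusted p = 5.12e-06), and 0.95 ± 0.0993 in stiripentol 3, 4 and 5 (limma, adjusted p = 4.02e-05). The 7 libraries that shared a scaling, namely controls 4 and 5 with all stiripentol libraries, gave a rise of 1.09 with a 95% interval of 0.685 to 1.49 (limma, adjusted p = 0.00609). Of the 4 genes Txnip alone passed the threshold in those 7 libraries, in which 10.1% of all genes were called higher and 9.87% lower.

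Against controls 1, 2 and 3 the sign was negative on the deposited scale. The log2 change of Txnip was -0.48 ± 0.198 (SE) in stiripentol 3, 4 and 5 (limma, adjusted p = 0.0647) and -0.13 ± 0.229 in stiripentol 1 and 2 (limma, adjusted p = 0.626), neither past the threshold. In the comparison with stiripentol 1 and 2 the median change of all genes was -0.246, and Txnip lay 0.12 above that median. Other scalings were not applied to that comparison, so its sign is not settled. Control 2 carried part of the -0.48. Without it the change was -0.22, with less spread between the remaining controls (limma, adjusted p = 0.0387). The comparisons that use the same controls share their error, and they are given side by side for that reason.

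Arrdc4, the relative of Txnip that also lowers glucose uptake, had similar means in both groups. It stood at 3.64, 4.28, 3.69, 3.45 and 3.58 log2 CPM in controls 1 to 5. In stiripentol libraries 1 to 5 it stood at 3.48, 3.42, 3.90, 3.77 and 3.88. Controls 1, 3, 4 and 5 lay within the range of the stiripentol libraries, and the highest library was control 2, as for Txnip. The reads behind these values numbered 267 to 1125 per control and 620 to 859 per stiripentol library. The mean was 3.73 ± 0.32 in control and 3.69 ± 0.22 in stiripentol libraries (SD, n = 5 each), a change of -0.04 with a 95% interval of -0.46 to 0.38 (limma, adjusted p = 0.892).

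Arrdc4 differed between the library sets in the same direction in both groups, by -0.35 in control and -0.40 in stiripentol libraries (smaller minus larger set, a description). Its change was -0.02 between the 2 larger sets (limma, adjusted p = 0.914) and -0.06 between the 2 smaller sets (limma, adjusted p = 0.706). With the sets crossed it was -0.42 from controls 1, 2 and 3 to stiripentol 1 and 2 (limma, adjusted p = 0.0969) and 0.33 from controls 4 and 5 to stiripentol 3, 4 and 5 (limma, adjusted p = 0.00815). The sign over all 10 libraries turned to 0.06 under trimmed-mean scaling and to 0.13 under quantile normalization, both short of the threshold.

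Txnip and Arrdc4 did not keep a fixed distance from each other. Txnip minus Arrdc4 on the log2 CPM scale was 3.10, 3.20, 2.97, 1.90 and 2.13 in controls 1 to 5. In stiripentol libraries 1 to 5 it was 3.33, 3.42, 2.64, 2.63 and 2.63. Controls 4 and 5 had the smallest distance and stiripentol 1 and 2 the largest, whereas stiripentol 3, 4 and 5 hardly differed from one another. The group means differed by 0.27 (two-sided exact permutation test, p = 0.437, the smallest possible being 0.00794). Between the larger sets the difference was -0.46 (exact p = 0.1) and between the smaller sets 1.36 (exact p = 0.333), each the smallest p that so few libraries allow.

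Control 2 stood out for both of these genes but not for the others. Its Txnip level was 0.78 above the mean of controls 1 and 3, the 44th largest such excess among 12306 genes, and its Arrdc4 level was 0.61 above, the 114th. Arrdc3 in the same library was 0.08 above and Mlxip was -0.10 from that mean.

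Arrdc3, the adaptor for integrin cargo, was steady in the control group, at 4.97, 5.00, 4.87, 4.79 and 4.94 log2 CPM. In stiripentol libraries 1 to 5 it stood at 3.30, 3.99, 5.75, 5.70 and 5.84. No stiripentol library fell within the range of the controls. Stiripentol 1 and 2 lay below all of them and stiripentol 3, 4 and 5 above all of them, so the means of 4.91 ± 0.08 and 4.91 ± 1.19 (SD, n = 5 each) differed by 0.00 (95% interval -1.03 to 1.03, limma, adjusted p = 0.998).

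The split of Arrdc3 did not depend on the controls. In stiripentol 3, 4 and 5 it was higher by 0.82 ± 0.0693 (SE) than in controls 1, 2 and 3 (limma, adjusted p = 5.92e-05) and by 0.90 ± 0.0723 than in controls 4 and 5 (limma, adjusted p = 8.31e-06). In stiripentol 1 and 2 the log2 change was -1.22 ± 0.197 against controls 4 and 5 (limma, adjusted p = 0.00019), a level of 0.428 times the control, and -1.30 ± 0.197 against controls 1, 2 and 3 (limma, adjusted p = 0.000545). Under trimmed-mean scaling, which raises stiripentol 1 and 2, the change between the smaller sets was -0.87, and it kept its direction.

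Mlxip, which encodes MondoA, had the narrowest range over the 10 libraries. It stood at 5.71, 5.63, 5.74, 5.28 and 5.42 log2 CPM in controls 1 to 5. In stiripentol libraries 1 to 5 it stood at 5.07, 5.38, 5.32, 5.49 and 5.45. Controls 1, 2 and 3 lay above every other library, and the remaining 7 overlapped. The mean of 5.56 ± 0.20 in control and 5.34 ± 0.16 in stiripentol libraries (SD, n = 5 each) gave a change of -0.21 with a 95% interval of -0.50 to 0.08 (limma, adjusted p = 0.24).

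Against controls 1, 2 and 3 Mlxip fell, by 0.27 on the log2 scale in stiripentol 3, 4 and 5 (limma, adjusted p = 0.0109) and by 0.47 in stiripentol 1 and 2 (limma, adjusted p = 0.00959). In the second comparison the median change of all genes was -0.246. Mlxip was -0.22 from that median and above 41.8% of all genes, and other scalings were not applied there. Against controls 4 and 5 the changes were 0.07 and -0.12, short of the threshold (limma, adjusted p = 0.402 and 0.424). Under trimmed-mean scaling the change between the smaller sets was 0.23 in place of -0.12, again short of the threshold.

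Mlxipl, which encodes ChREBP, was near absent at this depth. The single read was in control 1, and the other 9 libraries had 0, which allows up to 0.0471 to 0.134 CPM in a control library and up to 0.0494 to 0.0545 CPM in a stiripentol library. These limits cover counting error only. No fold or test is given for it.

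**Figure D3:**
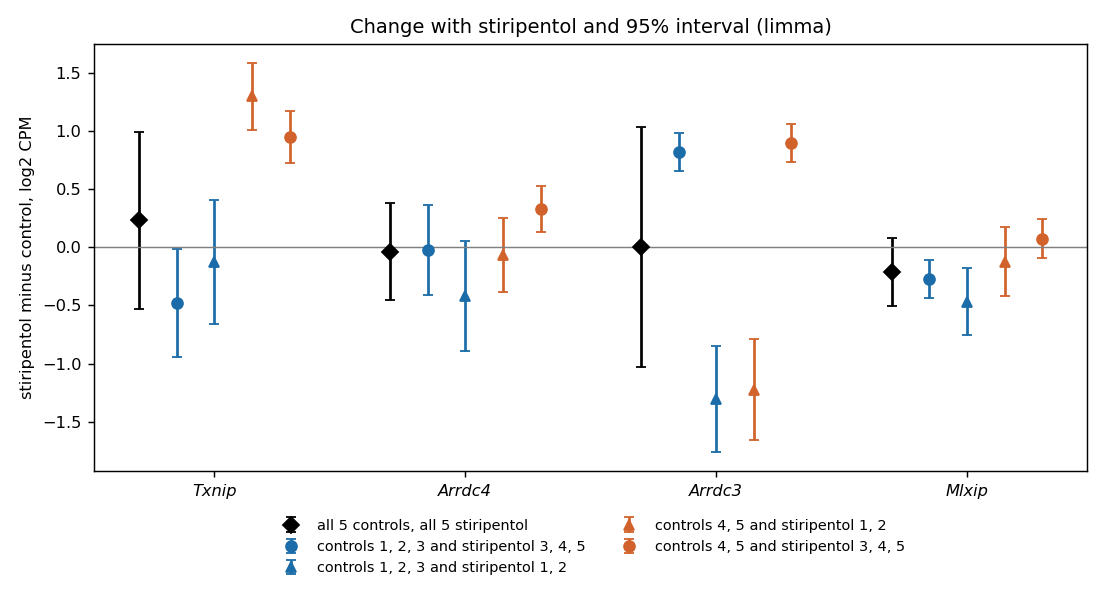
Change with stiripentol in log2 CPM with its 95% limma interval for the 4 tested genes, over all libraries (black) and for each set of controls (blue for 1, 2 and 3, orange for 4 and 5) against each set of stiripentol libraries (circles for 3, 4 and 5, triangles for 1 and 2). For Txnip the points separate by color, with rises of 1.30 and 0.95 against controls 4 and 5, and for Arrdc3 they separate by shape, with 0.82 and 0.90 above and -1.22 and -1.30 below 0.

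Counted over the 4 tested genes, 2 were called between the larger sets, where 64.7% of all genes were (27% lower and 37.7% higher). Between the smaller sets 2 were called, where 72.2% of all genes were (46.5% lower and 25.7% higher). From controls 1, 2 and 3 to stiripentol 1 and 2 the count was 2, beside 73.3% of all genes (45.2% lower and 28.1% higher). From controls 4 and 5 to stiripentol 3, 4 and 5 it was 3, beside 69% (31.5% lower and 37.5% higher). With so many genes called, these counts are near the background and are not a result about these genes. Ranked with its sign, the change of Txnip between the smaller sets was above that of 96.8% of all genes. This is not a rank by magnitude, since many genes fell there. Arrdc3, at -1.22, was still above 19.6% of all genes.

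Whether the effect of the drug differed between library sets was also fitted as an interaction, with the larger sets of both groups put together and the smaller sets likewise. The effect on Txnip was 1.78 ± 0.285 (SE) higher in the smaller sets (limma, adjusted p = 0.000267), and that on Arrdc3 was -2.04 ± 0.227 (limma, adjusted p = 1.95e-05). Arrdc4 at -0.04 and Mlxip at 0.15 did not pass the threshold (limma, adjusted p = 0.889 and 0.394), but this turned with the scaling. Mlxip passed at 0.56 under trimmed-mean scaling (limma, adjusted p = 0.00284) and at 0.47 under quantile normalization (limma, adjusted p = 0.0087), and Arrdc4 at 0.62 under quantile normalization (limma, adjusted p = 0.0419). The interaction passed for 63.3% of all genes. In 7.65% of all genes it passed with a negative effect of the drug in the larger sets and a positive one in the smaller, the pattern of Txnip. In 24% it passed with the reverse signs, the pattern of Arrdc3. The sets were found from the same values, and nothing in the labels ties a control set to a stiripentol set. With the sets paired the other way, the difference was -2.20 for Arrdc3 (limma, adjusted p = 6.45e-06) but -1.08 for Txnip (limma, adjusted p = 0.00541), the opposite sign. Arrdc4 at -0.75 and Mlxip at -0.54 then passed as well (limma, adjusted p = 0.0142 and 0.00599).

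Txnip and Arrdc4 were also placed among all genes by the root mean square difference between gene-centered log2 CPM profiles over the 10 libraries. The profiles most like that of Txnip were those of Snrnp35, a protein of the minor spliceosome, at 0.204, and Nop58, a core protein of box C/D small nucleolar particles, at 0.223. Next came the valyl-tRNA synthetase Vars at 0.228, the checkpoint kinase Atr at 0.231 and the centromeric histone Cenpa at 0.240, where the median over all genes was 0.737. Arrdc4 was 934th in this order at 0.479 and Mlxip 1815th at 0.537, whereas Arrdc3 was 9957th at 1.01. The nearest to Arrdc4 were Btf3l4 at 0.112, Cryzl1 at 0.123, the phosphatase regulator Ppp1r7 at 0.130, the ribonuclease subunit Rnaseh2a at 0.135 and the Elongator subunit Elp4 at 0.139, beside a median of 0.467. Txnip was 6378th in that order. All points share their libraries, so this is a description of likeness over 10 libraries with 2 sets in each group.

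Mlx, the partner both factors need, was the gene of the factor complex that rose. It stood at 5.06, 5.14, 5.19, 5.40 and 5.05 log2 CPM in controls 1 to 5. In stiripentol libraries 1 to 5 it stood at 5.71, 5.74, 5.92, 5.93 and 5.90. The groups did not overlap, a rise of 0.67 ± 0.109 (SE; limma, adjusted p = 0.00198) that was 0.79 between the larger and 0.50 between the smaller sets. It was the 1 gene of 4 in this list to pass, where 13.6% of all genes were called higher. Of its other partners, the repressors Mnt, Mxd1 and Mxd4 had changes of -0.12, 0.28 and -0.41 and did not pass.

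Of 20 other genes known as targets of these factors, 12 were tested, 5 were lower and 1 was higher, where 14.1% of all genes were lower and 13.6% higher. The median change was -0.18 beside -0.06 over all genes. The 5 lower genes act in lipid synthesis or in the step that feeds it with glycerol phosphate, and other factors control them as well. Fasn, the fatty acid synthase, changed by -1.10 ± 0.145 (SE; limma, adjusted p = 0.000648), and the elongase Elovl6 by -2.21 ± 0.312 (limma, adjusted p = 0.000953). The glycerol phosphate dehydrogenase Gpd1 changed by -2.08 ± 0.278 (limma, adjusted p = 0.000731) and the desaturase Scd1 by -0.98 ± 0.243 (limma, adjusted p = 0.0143). These 4 had the same sign in both the larger and the smaller sets, at -1.09 and -1.12 for Fasn and -1.76 and -2.88 for Elovl6. Scd1 had an adjusted p of 0.0507 under trimmed-mean scaling (limma).

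Acly, the ATP citrate lyase, changed by -0.89 ± 0.292 (SE; limma, adjusted p = 0.0436). That call was lost when any 1 of the 5 controls or of stiripentol 1 and 2 was left out, with adjusted p values up to 0.1 (limma). The zinc finger factor Klf10 was the 1 higher gene, by 0.63 ± 0.116 (limma, adjusted p = 0.00337), with 0.64 between the larger and 0.63 between the smaller sets. Fgf21, a secreted hormone gene that stress also induces, was below the filter, at -2.19 to -0.74 log2 CPM in control and 0.76 to 2.18 in stiripentol libraries, so that the groups did not overlap. The 6 tested targets that did not pass had changes from -0.28 for Acaca to 0.50 for Pfkfb3.

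Among the genes of glucose entry and trapping, none of 6 tested of 13 listed passed over all libraries, with a median change of 0.21. Slc2a1, the main glucose transporter and a cargo of Txnip, changed by -0.01 over all libraries, but by 0.52 between the larger sets (limma, adjusted p = 0.000279) and -0.82 between the smaller sets (limma, adjusted p = 3.7e-05). Hk2, the inducible hexokinase, likewise changed by 1.05 and -1.43 (limma, adjusted p = 0.000529 and 2.42e-06). In both the sign was opposite to that of Txnip under this pairing of sets, which the labels do not give. Of all genes, 11.4% were called higher between the larger and lower between the smaller sets. With the sets crossed, Hk2 had the signs of Txnip. It was at 5.69 and 6.06 log2 CPM in stiripentol 1 and 2 and 6.19 to 6.76 in controls 1, 2 and 3. In stiripentol 3, 4 and 5 it was at 7.42 to 7.47, above 7.27 and 7.33 in controls 4 and 5. Slc2a1 was lower in stiripentol 3, 4 and 5 (7.27 to 7.355) than in controls 4 and 5 (7.63 and 7.46). Hkdc1, a further hexokinase, changed by 1.74 over all libraries (limma, adjusted p = 0.0764), since controls 1, 2 and 3 were at -0.95 to -0.49 log2 CPM and the other 7 libraries at 2.18 to 2.45.

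**Figure D4:**
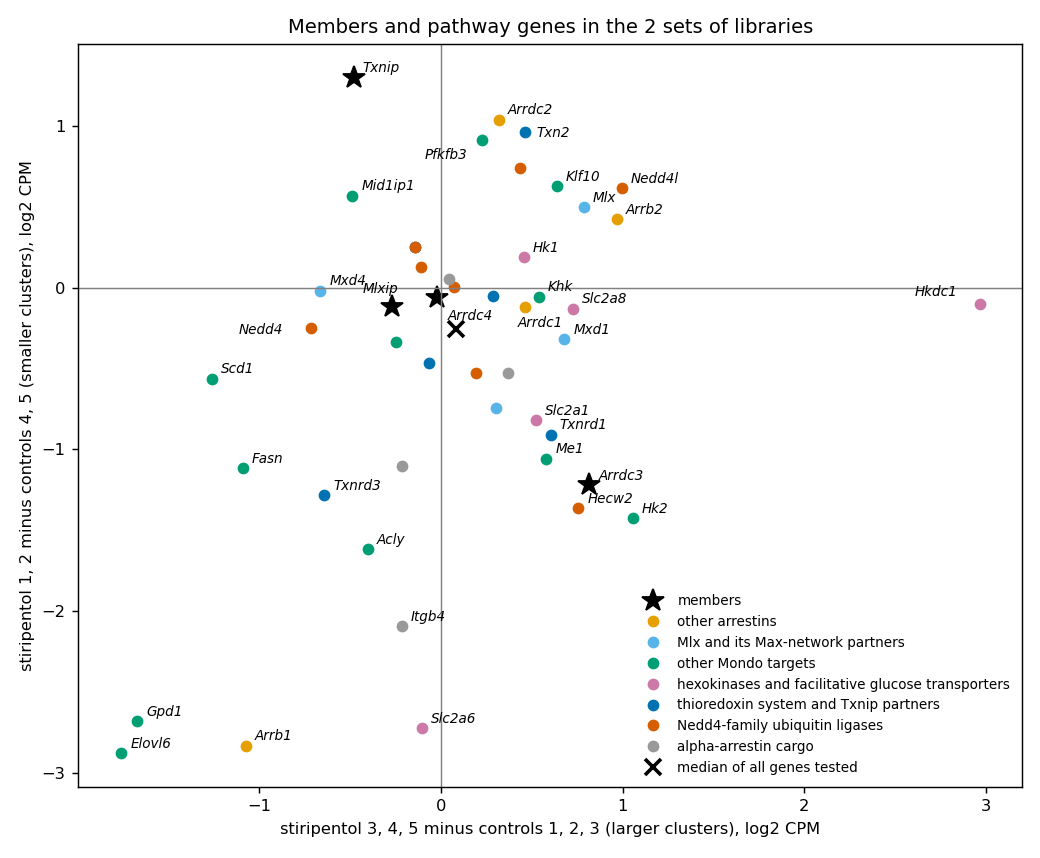
Change with stiripentol in log2 CPM between the larger sets (horizontal axis) and between the smaller sets (vertical axis) for the 4 tested genes (stars) and the tested genes of the pathway lists (circles colored by list), with the median of all genes as a cross. Txnip at -0.48 and 1.30 lies at the upper left, opposite to Arrdc3, Hk2 and Slc2a1 at the lower right, and Arrdc4 lies close to 0 on both axes. The labels do not tie a control set to a stiripentol set, and positions depend on this pairing.

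Of the other arrestins, 4 of 7 were tested, 1 was lower and 1 was higher, where 14.1% and 13.6% of all genes were. The beta-arrestin Arrb1 stood at 5.30 to 6.08 log2 CPM in control and 2.87 to 4.42 in stiripentol libraries, with no overlap, a change of -1.78 ± 0.312 (SE; limma, adjusted p = 0.00274). The other beta-arrestin, Arrb2, rose by 0.75 ± 0.165 (limma, adjusted p = 0.00842). The alpha-arrestins Arrdc1 and Arrdc2 changed by 0.23 and 0.61 without passing, and Arrdc5 had 4 reads in all libraries together. Arrdc2 was higher by 1.04 between the smaller sets (limma, adjusted p = 5.14e-05).

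The list of the thioredoxin system and further partners of Txnip, Ddit4 and Nlrp3, held 6 tested genes of 7. Of these, 1 was lower and 1 higher, where 27.7% of all genes were called, and the median change was 0.01. Mitochondrial thioredoxin Txn2 rose by 0.66 ± 0.143 (SE; limma, adjusted p = 0.00754) and the reductase Txnrd3 changed by -0.90 ± 0.274 (limma, adjusted p = 0.0332), a call lost when any 1 of controls 1, 2 and 3 or of stiripentol 1 and 2 was left out. Cytosolic Txn1, the direct partner of Txnip, changed by 0.01 ± 0.133, and its reductase Txnrd1 by 0.60 between the larger and -0.91 between the smaller sets. Of 9 Nedd4-family ligases 8 were tested, 1 was lower and 2 were higher, beside 14.1% and 13.6% of all genes. Nedd4 changed by -0.53 ± 0.113 (limma, adjusted p = 0.00718, or 0.0978 under trimmed-mean scaling), while Nedd4l rose by 0.84 ± 0.196 (limma, adjusted p = 0.011) and Wwp1 by 0.56 ± 0.115 (limma, adjusted p = 0.00629). Itch, the ligase best known as a partner of Txnip, changed by -0.01 ± 0.142. Of the 6 cargo genes 5 were tested and none passed over all libraries, with Itgb4 at -0.97. Between the smaller sets 4 of the 5 were lower, where 46.5% of all genes were, and Itgb4 changed by -2.10 there (limma, adjusted p = 2.2e-06) but by -0.22 between the larger sets (limma, adjusted p = 0.518). The controls set this difference. Itgb4 was at 3.17 and 3.26 log2 CPM in controls 4 and 5 and 0.98 to 2.11 in controls 1, 2 and 3. All stiripentol libraries were at 1.00 to 1.35.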

How the data were processed

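RNA from mSCLC-2405 cells was analyzed from 1 table of 10 libraries. The authors deposited log2 CPM, and their methods name GENAVi for scaling to CPM; the build in the submitters' notes is mm10, and the aligner and annotation are not given in the sources used here. The authors also deposited group means, a ratio, p-values and q-values, which were not used. The methods name a 3′ mRNA kit and the sample records a total RNA kit, so levels were not compared between genes. Whole reads were recovered (100% of values within 0.01 of a read). The 14 rows named by a number held 0.157% of reads. limma 3.58.1 in R 4.3.3 (lmFit, eBayes with trend) was fitted to genes whose mean log2 CPM exceeded 0 (12306), with Benjamini-Hochberg adjustment, called at an adjusted p under 0.05, two-sided and with no covariate. Single ratios had exact permutation tests. Scripts were tested on simulated data. Library sets came from complete linkage on 1 minus the correlation within each group. The members and gene lists were chosen with earlier results of these data known. Named genes were the members, every called gene of the pathway lists with ranges of the others, and the 5 nearest profiles to Txnip and Arrdc4; uncalled list genes named with values for their role were chosen after these were seen. Alternatives were the library sets, a replicate block, omission of single libraries, other scalings, filters and pseudocounts of 0.1 and 1 CPM, and voom; the crossed sets, the 7 libraries, scalings within sets and the larger sets without control 2 were chosen after seeing the data. The labels do not say whether libraries came from separate cultures, so p-values measure the spread between these libraries. Reads are not independent molecules, so counting limits (3 reads for a 0) cover counting error only. A few genes of the lists are not reported here.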

Additional observations from a re-analysis of the deposited data

Results flagged for a closer look

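Arrdc4 in control 2 lay far from the other 4 controls, at 4.28 log2 CPM where they lay at 3.45 to 3.69. The gap to the next control was 0.71 of the range of the group, just past the limit for 5 libraries, and it was 1 of 8 groups examined, where chance marks about 1 in 20. Without that library the change of Arrdc4 was 0.10 (limma, adjusted p = 0.698).

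The effect of stiripentol on Txnip differed by 1.778 log2 units between the smaller and the larger library sets, and that on Arrdc3 by -2.041. Leaving out 1 library at a time gave 1.52 to 1.96 for Txnip and -2.39 to -1.70 for Arrdc3, each past the threshold (limma, adjusted p up to 0.0024 and 0.000263). The value for Txnip turned to -1.08 with the sets paired the other way, and that for Arrdc3 was then -2.20. In control the sets differed by -1.43 for Txnip and -0.08 for Arrdc3, and in stiripentol libraries by 0.35 and -2.12. In the control group the split of the library sets falls where the deposited scaling was separate, at controls 1, 2 and 3. From recovered reads over the total of each library, Txnip was at 107, 179 and 101 CPM in controls 1, 2 and 3. It was at 41.0 and 52.4 CPM in controls 4 and 5. The stiripentol libraries all share a scaling, and the source of the split was not tested in either group.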

How the results depend on the processing

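The counts of genes over all libraries, 1740 lower and 1674 higher, moved to 1062 and 1020 with the replicate block, 3336 and 2908 with the library set as a term, 3322 and 4637 in the larger and 5726 and 3158 in the smaller sets, and to 5564 and 3457 (controls 1, 2 and 3 with stiripentol 1 and 2) and 3880 and 4610 (controls 4 and 5 with stiripentol 3, 4 and 5). With the mean of each group and set they were 0 and 0 (limma; 1116 at an unadjusted p under 0.05), since only 4 values remained. In the larger sets they were 3778 and 4098 with trimmed-mean scaling, 3617 and 4281 with quantile normalization and 2949 and 4281 without control 2. In the smaller sets they were 4235 and 5020, and 4256 and 4736, so the split between lower and higher there turned with the scaling. Trimmed-mean scaling moved the median change over all libraries from -0.06 to 0.05. Leaving out 1 library gave 1171 to 1802 lower and 1218 to 1706 higher genes.

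Deviations from the group means correlated at -0.240 to 0.061 between libraries of the same replicate number. These values cannot decide whether the numbers pair the libraries. Numbers 1, 2, 4 and 5 each join a library of a larger set with one of a smaller set, and the deviations include the gap between sets. The replicate block called none of the 4 tested genes. For Txnip, leaving out 1 library gave -0.028 (without control 4) to 0.50, and the sets gave -0.48 and 1.30, or -0.54 and 1.65 with trimmed-mean scaling (the first then past the threshold, limma, adjusted p = 0.0402) and -0.51 and 1.42 with quantile normalization, -0.13 and 0.95 crossed, -0.22 in the larger sets without control 2 and 1.09 in 7 libraries. For Arrdc4 the range was -0.11 to 0.10, with 0.13 under quantile normalization, 0.063 under trimmed-mean scaling, 0.17 in 7 libraries, 0.18 in the larger sets without control 2, 0.33 from controls 4 and 5 to stiripentol 3, 4 and 5, and 0.29 and 0.50 in the smaller sets under the 2 scalings, the last past the threshold (limma, adjusted p = 0.00454). For Arrdc3 it was -0.23 to 0.41, with 0.82 and -1.22 in the sets, 0.75 and -0.87 with trimmed-mean scaling, 0.78 and -0.76 with quantile normalization, 0.90 and -1.30 crossed, 0.84 without control 2, -0.20 with set means and -0.0047 by voom. For Mlxip it was -0.28 to -0.14, with -0.27, -0.33 and -0.33 in the larger sets, -0.30 without control 2, -0.47 and 0.073 crossed, 0.23 and 0.14 in the smaller sets under the 2 scalings and -0.12 there as deposited, and -0.11 with trimmed-mean scaling and -0.0051 in 7 libraries. The difference between sets became 0.62 (quantile), 0.37 (trimmed mean) and -0.75 (crossed) for Arrdc4 (past the threshold but for the trimmed mean), 0.47, 0.56 and -0.54 for Mlxip (all past it) and -1.08 crossed for Txnip, and 1 library left out gave -0.25 to 0.074 for Arrdc4 and -0.0037 to 0.30 for Mlxip. Txnip minus Arrdc4 was -0.46 in the larger and 1.36 in the smaller sets, 0.91 in 7 libraries and 0.45 with set means, 0.14 with quantile normalization, and 0.080 (without control 4) to 0.40 (without control 2) with 1 library left out, with 0.17 or less also without control 5, stiripentol 1 or stiripentol 2. The causes were not tested. A ratio of Mlxipl to Mlxip was not computed, as Mlxipl had 1 read. With 267 reads at the least, Arrdc4 is the tested gene that depth limits most.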
